A study of Mus musculus with 6 samples.

Results

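Ribosome biogenesis was examined in mouse CD4+ T cells through 48 genes for nucleolar proteins and RNA polymerase I, chosen by gene symbol from the 54532 genes of the deposited count table. All 48 symbols were found, each in 1 row, and 47 had enough reads to be tested; Wdr74 did not. The samples were naive CD4+ T cells of C57BL/6 mice, labelled as spleen lymphocytes and cultured for 72 h with beads against CD3 and CD28, IL-2, and antibodies that block IFN-gamma and IL-4. In 3 libraries the cells had also been given neutrophil extracellular traps (NETs), chromatin webs studded with granule enzymes that neutrophils cast out, and in 3 the vehicle. All 6 libraries therefore come from stimulated cells. The labels do not tie the libraries to animals or separate cultures, so the p-values here measure only how these libraries vary, which may be technical. No label read here gives the source or dose of the NETs.

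Cells make ribosomes in the nucleolus. RNA polymerase I transcribes one long precursor, which snoRNA-guided enzymes modify and a series of assembly factors fold, cleave and load with ribosomal proteins to give the small and the large subunit. T cells expand the nucleolus when they leave quiescence, because growth and division need many ribosomes, and the transcription factor Myc is a known activator of these genes in lymphocytes.

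Library totals ranged from 15657622 to 18655997 counts, and the 48 genes took between 0.432% and 0.520% of them. The 9 CD4 T cell markers looked for, such as Cd3e, Cd4 and Lck, summed to between 4722 and 5159 CPM (a library's reads rescaled to a common total) with vehicle and between 4808 and 5126 CPM with NETs. The markers of other cells looked for summed to far less. The 2 CD8 T cell markers summed to between 18.4 and 20.8 CPM with vehicle and between 13.0 and 19.5 CPM with NETs. For the 5 B cell markers the sums were between 17.6 and 18.3 CPM and between 13.2 and 19.2 CPM. NK cell and erythroid markers reached at most 0.272 and 2.57 CPM. The 12 neutrophil markers summed to between 1.86 and 3.38 CPM with vehicle and between 4.31 and 5.44 CPM with NETs. Among them S100a9 had 0 reads in each vehicle library and 16, 24 and 20 reads in NETs replicates 1 to 3. S100a8 had 0, 1 and 0 reads against 7, 11 and 10, and Ly6g was at 0 in every library. Mpo overlapped between groups, with 29, 37 and 15 reads against 32, 34 and 41. Ltf (10, 3 and 10 against 7, 7 and 5) and Mmp8 (3, 8 and 2 against 2, 3 and 3) had lower mean CPM with NETs. The remaining neutrophil markers had few reads and higher mean CPM with NETs. The 5 monocyte and macrophage markers summed to between 29.8 and 39.4 CPM and between 39.3 and 52.0 CPM. Most of this was Lyz2, at 30.1, 19.4 and 21.0 CPM with vehicle and 30.7, 38.8 and 38.5 CPM with NETs. Adgre1 also separated the groups upward, Cd68 and Csf1r overlapped between them, and Itgam had a lower mean CPM with NETs. Reads on mitochondrial genes made up at most 1.71% of counts with vehicle and at most 1.46% with NETs, and the lowest vehicle library lay above the highest NETs library. The part of these differences in the results below was not tested. In bulk RNA, fewer cells of a type and less RNA per cell cannot be told apart.

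The deposited FPKM values of the members (reads scaled by a gene length and library total) spanned a wide range. With vehicle they were highest for Npm1, the nucleolar histone chaperone nucleophosmin, at 969 ± 92.8 (SD, n = 3). Next came Ncl, nucleolin, at 346 ± 9.62, and Rrp1, a large subunit processing factor, at 252 ± 22.8. In FPKM these 3 stood apart. The next group, Polr1d at 116 ± 5.73, Pa2g4 at 113 ± 13.1 and Nop56 at 111 ± 14.7, did not differ from each other beyond their spread. Most members lay between 10 and 100 FPKM. Among the lowest were Rrs1 at 7.73 ± 1.46, Bysl at 4.58 ± 0.888, Rrp15 at 4.12 ± 1.40 and Rrp12 at 2.73 ± 0.704. Npm1 has many processed pseudogenes, so its level is uncertain. The length behind these values was not the deposited gene length in every member. In vehicle replicate 1, Rrs1 had 13.1 CPM and 6.39 FPKM, which match its deposited length of 2048 bases. Npm1 had 1113 CPM and 1074 FPKM, which do not match 2665 bases. Rrp1 had 230 CPM and 239 FPKM, which do not match 3337 bases. The order of the members by FPKM, including the place of Rrp1, thus depends on lengths that are not given here.

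**Figure D1:**
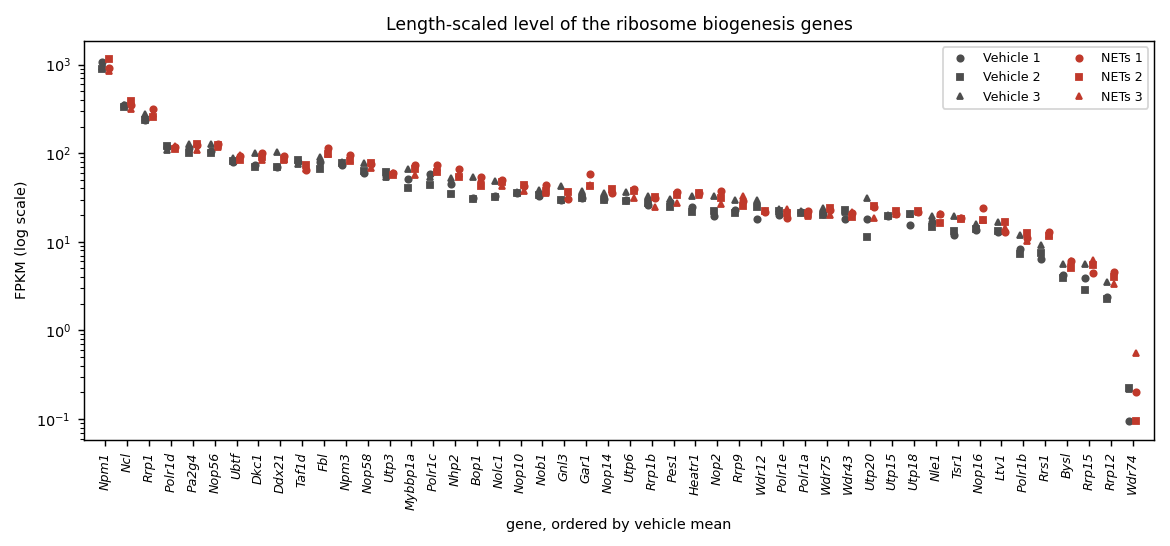
FPKM (log axis) of the 48 genes in each library, ordered by the vehicle mean; grey symbols are vehicle and red symbols NETs libraries, with circles, squares and triangles for replicates 1, 2 and 3. Npm1 leads at 969 FPKM with vehicle, and Wdr74 lies lowest at 0.179 FPKM.

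Wdr74, a WD-repeat protein of large subunit assembly, was the member without a test. It had 2, 4 and 4 reads in vehicle replicates 1 to 3 and 4, 2 and 11 reads in NETs replicates 1 to 3. Its locus (chr19:8735827-8740624, plus strand, coordinates of GRCm38) overlaps a second protein-coding gene, Gm45736, on the same strand, which held 3 reads in vehicle replicate 1 and 0 in the other libraries. No label or header read here says how reads shared by overlapping genes were counted, so the low count of Wdr74 is uncertain as a level of expression. Of the 48 genes, 20 overlapped another gene that is no small RNA, and apart from Wdr74 the partners lay on the opposite strand. Rrs1, Gar1, Fbl, Nop16, Polr1c and Rrp12 overlapped none. Nhp2 overlapped Rmnd5b, Heatr1 overlapped Gm5928 and Lgals8, and Nop14 overlapped Gm15522. The strand setting of the counting is not given here, so the part of such partners in the counts is unknown.

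The comparison asked whether NETs changed the transcripts of this machinery. Most members had higher mean levels with NETs, by small amounts, and none passed the adjusted threshold. Vehicle replicate 3 had levels like those of the NETs libraries. Of the 47 genes tested, 41 had a log2 fold change above 0 (87.2%, against 50.2% of all genes tested), and the median was 0.19, against 0.0012 over all genes tested. In the quasi-likelihood test of edgeR, with p-values adjusted by Benjamini-Hochberg over 13900 genes, 0 members passed an adjusted p of 0.05 (0% of all genes tested passed), and the smallest adjusted p of a member was 0.223. At an unadjusted p under 0.05, 11 members were higher, where 6.72% of all genes tested were, and 1 was lower, where 6.06% were. In 12 members all 3 NETs libraries lay above all 3 vehicle libraries (8.72% of all genes tested) and in 1 member all lay below (7.86%). Both conditions, an unadjusted p under 0.05 and groups that did not overlap, were met upward by 8 members, where 4.73% of all genes tested met both: Rrs1, Gar1, Fbl, Nhp2, Heatr1, Polr1c, Nop16 and Nop14.

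A score per library, the mean over members of the log2 CPM distance from the vehicle average, was −0.10, −0.11 and 0.21 for vehicle replicates 1 to 3. It was 0.28, 0.21 and 0.17 for NETs replicates 1 to 3. Vehicle replicate 3 was thus close to NETs replicate 2 and above NETs replicate 3 on this scale. It was the highest of the vehicle libraries in 39 of the 47 genes (83.0%), against 36.2% of all genes tested, and lay above every NETs library in 8 (17.02%), against 23.9% of all genes tested. Vehicle replicates 1 and 2 both lay below every NETs library in 33 members (70.2%), against 19.3% of all genes tested. With vehicle replicate 3 left out, edgeR called 12 members higher at an adjusted p under 0.05, where 1.51% of genes were called higher, and 0 lower, where 1.3% were. The 12 were Bop1, Nolc1, Heatr1, Rrs1, Fbl, Mybbp1a, Nhp2, Nop2, Rrp12, Ddx21, Tsr1 and Gar1. Without that library 44 members were above 0 (50.4% of all genes), 27 were higher at an unadjusted p under 0.05 (11% of all genes) and 34 had separate groups upward (19.1%). That fit rests on 2 vehicle libraries, and nothing in the labels sets vehicle replicate 3 apart. The library stood out by its levels in these same members, so leaving it out raises most of their fold changes by construction. The calls without it, and any fold change or adjusted p without it given below, are therefore a description and no separate support. Leaving out any other library called 0 members. With all libraries but no filter on low counts, edgeR called 6 members higher (0.775% of 24780 genes) and 0 lower (0.525%), namely Rrs1, Fbl, Gar1, Nhp2, Heatr1 and Mybbp1a, and 18 were higher at an unadjusted p under 0.05 (5.29%). DESeq2 called Fbl higher (1.03% of genes with an adjusted p were called higher) and 0 members lower (1.04%).

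**Figure D2:**
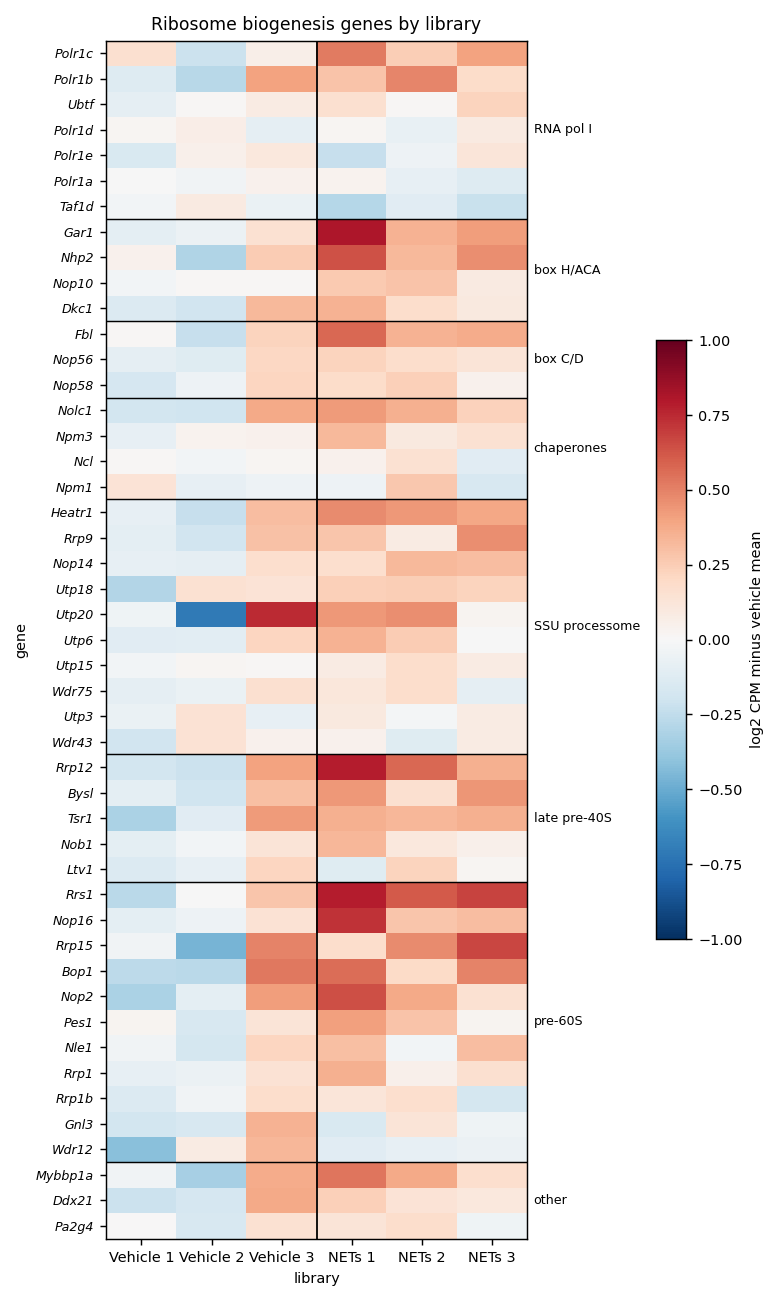
TMM-scaled log2 CPM as distance from the vehicle mean for the 47 tested genes in the 6 libraries, with red above and blue below the vehicle mean, and horizontal lines between role groups. Vehicle replicates 1 and 2 are mostly blue, while vehicle replicate 3 and the 3 NETs libraries are mostly red.

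Promoter sequence was described as a feature the gene list did not use. The RefSeq promoter table for GRCm38.p6, which holds 250 bases before and 50 bases after each annotated start, had 50 windows for 42 of the 48 genes. The E-box CACGTG, a sequence that Myc and its relatives bind, was present in 9 of these 50 windows (18.0%), against 7.15% of all windows in the table and 9.79% of the windows of genes tested. The ETS-type sequence CCGGAAGT, on either strand, was in 10 of the 50 windows, against 3.89% of all windows and 8.21% of those of genes tested. TATAAA was in 2 member windows (4.0%), against 6.94% for genes tested, and an NRF1-type palindrome in 0, against 2.06%. The last 3 sequences were chosen after the fold changes were known. These are matches of letters, counted on both strands, and not binding sites.

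Of the E-boxes, 2 lay wholly before the start, 60 bases upstream in Nop2 (chr6:125131796-125131855, plus strand) and 20 bases upstream in Utp18 (chr11:93885767-93885826, minus strand). The 60 bases around each are given 5′ to 3′ on the gene's strand, with the E-box in capitals.
Nop2: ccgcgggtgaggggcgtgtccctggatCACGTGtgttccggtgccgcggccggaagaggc
Utp18: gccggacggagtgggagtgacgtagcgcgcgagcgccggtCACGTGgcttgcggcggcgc

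The other 7 E-boxes, in Wdr43, Utp20, Ltv1, Tsr1, Pes1, Nle1 and Mybbp1a, began after the start. Members with an E-box had a median log2 fold change of 0.22 over 9 genes, and the 32 tested members with a window and no E-box had 0.17, while 1 of the 9 and 7 of the 32 were higher at an unadjusted p under 0.05. Over all tested genes with a window the medians were 0.024 with an E-box and 0.0088 without. At an unadjusted p under 0.05, 100 of the 1155 with an E-box and 631 of the 8758 without were higher. No test was made of this. An ETS-type match wholly before the RefSeq start was found in 4 of the 8 genes that met both conditions above (Fbl and Rrs1 had no window). It was found in 2 of the 35 other tested members with a window, and in 7.02% of all tested genes with one. Since the motif was chosen with the fold changes known, these counts are a description and carry no test. The 4 sequences are shown with the match in capitals: Gar1 (chr3:129831408-129831467, minus strand), Nhp2 (chr11:51619713-51619772, plus strand), Heatr1 (chr13:12395315-12395374, plus strand) and Polr1c (chr17:46248055-46248114, minus strand). In Gar1 the match reads on the opposite strand. In the deposited coordinates Heatr1 and Nhp2 begin earlier than their RefSeq starts, at chr13:12395027 and chr11:51619735. The matches of Heatr1 and Nhp2 therefore lie inside the deposited gene bounds, and those of Gar1 and Polr1c before them.
Gar1: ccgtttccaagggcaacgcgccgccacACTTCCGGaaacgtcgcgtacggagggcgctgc
Nhp2: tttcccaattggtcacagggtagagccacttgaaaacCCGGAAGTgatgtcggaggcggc
Heatr1: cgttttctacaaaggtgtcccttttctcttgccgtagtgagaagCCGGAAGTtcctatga
Polr1c: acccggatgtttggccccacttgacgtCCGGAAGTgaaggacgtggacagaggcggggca

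The same match stood before the start of Utp3 and Ltv1, whose log2 fold changes were 0.05 and 0.04, and of Wdr74.

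RNA polymerase I itself had values on both sides of 0. Over the 7 genes of the enzyme and its factors the median log2 fold change was 0.01, with 4 above 0. Polr1c, a subunit shared with RNA polymerase III, stood at 44.0, 33.2 and 41.0 CPM with vehicle and 55.8, 46.3 and 51.0 CPM with NETs. All 3 NETs values were above all vehicle values, and the log2 fold change was 0.39 (SE 0.12; adjusted p = 0.239). Polr1b, the second largest subunit, was at 14.6, 12.9 and 20.9 CPM with vehicle and 19.2, 22.1 and 17.7 CPM with NETs, where vehicle replicate 3 lay above NETs replicates 1 and 3 (log2 fold change 0.30, SE 0.18). The largest subunit Polr1a, which carries the catalytic centre together with Polr1b, was at −0.06 (SE 0.10), Polr1d at 0.01 (SE 0.09) and Polr1e at −0.05 (SE 0.13).

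Taf1d, a subunit of the selectivity factor that places the polymerase on the ribosomal DNA promoter, was the member whose groups separated downward. It had 120, 127 and 116 CPM with vehicle and 98.9, 112 and 102 CPM with NETs, so the highest NETs value was under the lowest vehicle value. The log2 fold change was −0.21 (SE 0.09; adjusted p = 0.341). With the trend over GC content removed it was −0.0962 and the groups overlapped, and the unadjusted p was above 0.05 with that trend, the length trend or a replicate block in the fit, and without vehicle replicate 2, NETs replicate 1 or NETs replicate 3. Ubtf, the architectural factor of active ribosomal DNA, was at 0.13 (SE 0.09). Of 13 other genes of this apparatus 8 were above 0, with a median of 0.04, and 0 passed the adjusted threshold. Those with the largest values were subunits shared with other RNA polymerases, Polr2l at 0.65 (SE 0.22) and Polr2f at 0.57 (SE 0.15), and those with the lowest were the promoter factor subunits Taf1b at −0.19 and Taf1a at −0.15. Rrn3, the initiation factor that links the polymerase to growth signals, stood at 0.04 (SE 0.12).

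Box H/ACA proteins, which with a guide snoRNA convert uridine to pseudouridine and also hold telomerase RNA, had a median of 0.34. All 4 genes were above 0. Gar1, a glycine- and arginine-rich subunit (ENSMUSG00000028010; chr3:129824912-129831396), had 20.2, 20.2 and 23.9 CPM with vehicle and 37.2, 27.1 and 28.1 CPM with NETs. The groups did not overlap, and NETs replicate 1 was the highest library. Its mean went from 21.4 ± 2.10 to 30.8 ± 5.56 CPM (SD, n = 3 each). The log2 fold change was 0.54 (SE 0.15; adjusted p = 0.223). Nhp2, a core subunit of the particle, had 42.2, 32.6 and 48.6 CPM with vehicle and 62.5, 50.6 and 55.0 CPM with NETs (log2 fold change 0.46, SE 0.14; adjusted p = 0.223). Its lowest NETs value was just above vehicle replicate 3. Nop10, the smallest subunit, was at 0.22 (SE 0.10), also without overlap. Dkc1, the pseudouridine synthase dyskerin, had 63.4, 59.5 and 86.6 CPM with vehicle and 86.8, 77.9 and 72.7 CPM with NETs, and here vehicle replicate 3 nearly equalled the highest NETs library (log2 fold change 0.19, SE 0.13).

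Box C/D proteins, which carry out guided methylation of ribose in RNA, had a median of 0.17 with all 3 genes above 0. Fbl, the methyltransferase fibrillarin (ENSMUSG00000046865; chr7:28169710-28179269), had 76.0, 62.9 and 87.4 CPM with vehicle and 111, 95.2 and 95.1 CPM with NETs. The groups were separate, the means being 75.4 ± 12.3 and 100.3 ± 8.95 CPM, and the log2 fold change was 0.42 (SE 0.11; adjusted p = 0.223). The scaffold proteins Nop56 and Nop58 overlapped between groups. Nop56 had 112, 108 and 137 CPM with vehicle and 137, 133 and 127 CPM with NETs (log2 fold change 0.17, SE 0.10). Nop58 had 77.4, 81.9 and 100.02 CPM with vehicle and 97.0, 101 and 87.2 CPM with NETs (log2 fold change 0.15, SE 0.10). The differences between the 3 fold changes were not tested.

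The abundant nucleolar phosphoproteins had values near 0. Ncl was at 0.03 (SE 0.08), and Npm1 had 1113, 931 and 967 CPM with vehicle and 957, 1204 and 884 CPM with NETs, so that each group held both high and low libraries (log2 fold change 0.03, SE 0.11). Npm3, a smaller relative of nucleophosmin, had 58.4, 61.8 and 63.2 CPM with vehicle and 75.9, 65.3 and 66.9 CPM with NETs, without overlap (0.19, SE 0.10; adjusted p = 0.423). Nolc1, the snoRNP chaperone of the nucleolus and Cajal bodies, had 62.3, 60.3 and 91.5 CPM with vehicle and 93.3, 89.5 and 81.0 CPM with NETs. Vehicle replicate 3 was far above the other vehicle libraries here, and the log2 fold change of 0.31 (SE 0.14; adjusted p = 0.361) was 0.53 without that library (adjusted p = 0.0226).

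**Figure D3:**
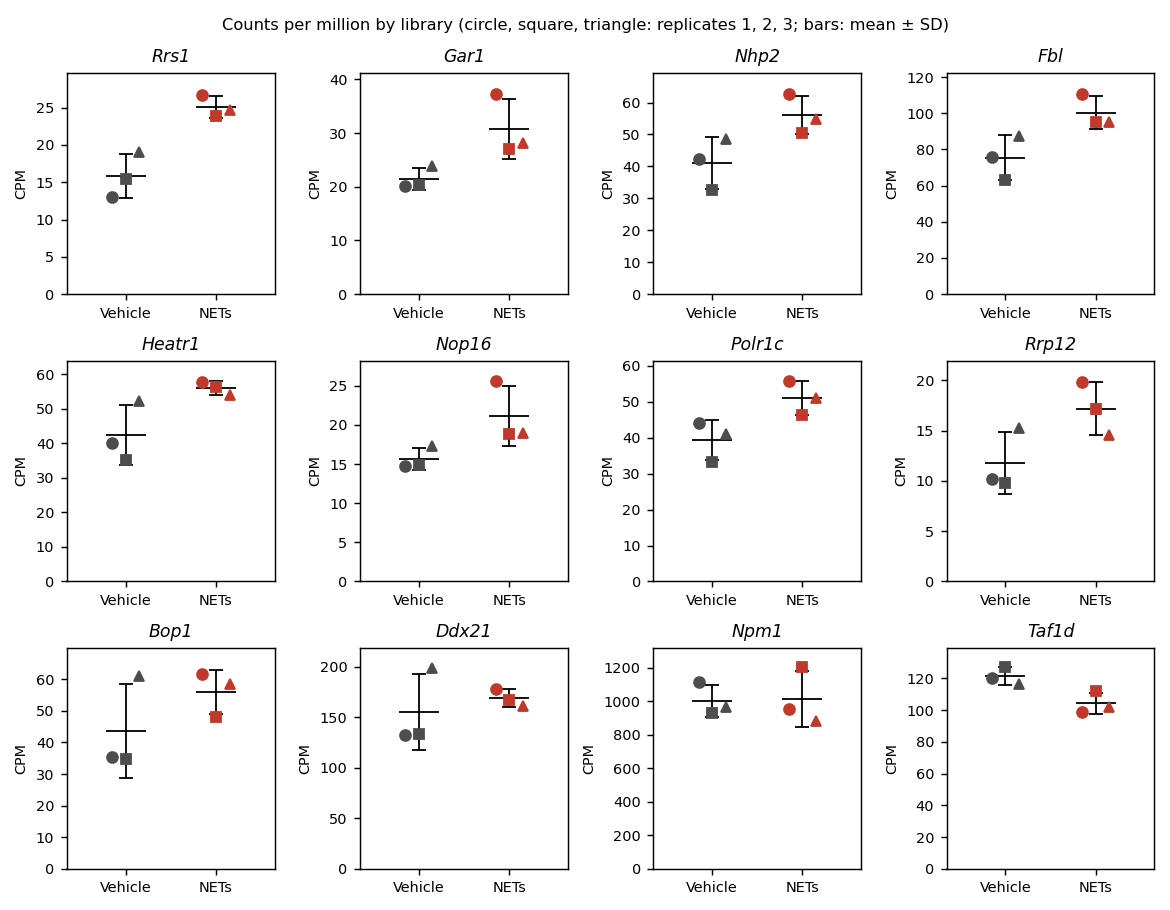
CPM of 12 members in each library, with vehicle in grey and NETs in red, circles, squares and triangles for replicates 1 to 3, and bars for mean ± SD; every axis starts at 0. Rrs1, Gar1, Nhp2, Fbl, Heatr1, Nop16 and Polr1c separate the groups upward and Taf1d downward, while the triangle of vehicle replicate 3 lies among the NETs values in Bop1 and above them in Ddx21.

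The small subunit processome, the large particle that forms on the 5′ part of the precursor, had a median of 0.20 over 10 genes, 9 of them above 0. Heatr1, a large scaffold of its early t-UTP module (ENSMUSG00000050244; chr13:12395027-12440289), had 39.9, 35.3 and 52.2 CPM with vehicle and 57.8, 56.4 and 53.9 CPM with NETs. The groups did not overlap, although vehicle replicate 3 came close to NETs replicate 3 (log2 fold change 0.41, SE 0.13; adjusted p = 0.234). Nop14, a protein that joins the processome's core, had 35.8, 34.7 and 42.3 CPM with vehicle and 41.9, 46.8 and 45.6 CPM with NETs, which separated only after TMM scaling (0.26, SE 0.11; adjusted p = 0.355). Rrp9, a protein of the snoRNP that base-pairs with the precursor, had 18.71, 17.1 and 24.4 CPM with vehicle and 23.9, 20.9 and 26.9 CPM with NETs, with overlap (0.27, SE 0.16).

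Other processome members ranged down to Wdr43, a partner of Heatr1, at −0.0037 (SE 0.11), with 63.1, 77.9 and 74.0 CPM with vehicle and 72.9, 65.6 and 74.2 CPM with NETs. Utp18 and Utp15 separated the groups, by 0.22 (SE 0.12) and 0.11 (SE 0.10), and neither reached an unadjusted p under 0.05. Utp20 had the widest spread of all members. It ranged over 33.8, 20.9 and 58.2 CPM with vehicle and 46.3, 47.6 and 34.6 CPM with NETs, and its log2 fold change was 0.20 (SE 0.33) with every library and 0.66 without vehicle replicate 3 (adjusted p = 0.0661). Of 34 other processome genes, 30 were above 0 with a median of 0.18, 8 were higher at an unadjusted p under 0.05, and 0 passed the adjusted threshold. They ranged from Pwp2 at 0.46 (SE 0.16) and Rrp36 at 0.35 (SE 0.13) to Utp14a at −0.10 and Krr1 at −0.18.

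The factors that finish the small subunit, some of which travel with it to the cytoplasm, had a median of 0.31 with all 5 above 0. Rrp12, a HEAT-repeat protein needed for export of both subunits, had 10.2, 9.84 and 15.3 CPM with vehicle and 19.8, 17.2 and 14.6 CPM with NETs. Vehicle replicate 3 was above NETs replicate 3, and the log2 fold change was 0.56 (SE 0.19; adjusted p = 0.271), or 0.79 without that vehicle library (adjusted p = 0.0389). Bysl, bystin, had 16.4, 15.01 and 21.5 CPM with vehicle and 23.4, 19.4 and 23.3 CPM with NETs, again with an overlap through vehicle replicate 3 (0.33, SE 0.16; adjusted p = 0.402). Ltv1, an export adaptor, overlapped between groups, with 19.3, 19.5 and 24.5 CPM against 19.2, 24.5 and 20.9 CPM (0.04, SE 0.15). Tsr1, a GTPase-like factor, stood at 0.31 (SE 0.17) and Nob1, the endonuclease that makes the final cut of the small subunit's RNA, at 0.17 (SE 0.12). The 8 other genes of this step divided evenly, 4 above and 4 below 0, from Pno1, the partner of Nob1, at 0.50 (SE 0.24) and Nom1 at 0.27 to Riok3 at −0.13 and Dimt1 at −0.14.

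Large subunit factors had a median of 0.25 over 11 tested genes, 9 of them above 0, and included the member with the highest fold change. Rrs1, which brings the ribosomal 5S particle to the large subunit (ENSMUSG00000061024; chr1:9545408-9547455), had 13.1, 15.4 and 19.0 CPM with vehicle and 26.7, 23.9 and 24.7 CPM with NETs. The lowest NETs value was well above vehicle replicate 3, and the means were 15.8 ± 2.996 and 25.1 ± 1.46 CPM (SD, n = 3 each). The log2 fold change was 0.68 (SE 0.16), with an adjusted p of 0.223 by edgeR. Nop16 had 14.7, 14.9 and 17.3 CPM with vehicle and 25.6, 18.9 and 19.0 CPM with NETs, without overlap (0.45, SE 0.16; adjusted p = 0.277).

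The PeBoW complex of Pes1, Bop1 and Wdr12, which acts in processing of the large subunit's RNA, had values on both sides of 0. Bop1 had 35.5, 34.6 and 60.9 CPM with vehicle and 61.6, 48.2 and 58.5 CPM with NETs, so vehicle replicate 3 was higher than NETs replicates 2 and 3 (0.37, SE 0.19, and 0.69 without it, adjusted p = 0.0220). Pes1 stood at 0.25 (SE 0.12). Wdr12 had 43.6, 60.4 and 72.8 CPM with vehicle and 53.0, 54.5 and 54.5 CPM with NETs (−0.11, SE 0.15), with the NETs libraries close together inside the vehicle range. Nop2, an RNA methyltransferase, stood at 0.37 (SE 0.17), Rrp15 at 0.40 (SE 0.23), Rrp1 and Nle1 each at 0.19, Rrp1b at 0.04, and Gnl3, the GTPase nucleostemin, at −0.04 (SE 0.15). Among 46 other large subunit genes, 39 were above 0 with a median of 0.15, 8 were higher at an unadjusted p under 0.05 and 0 passed the adjusted threshold. Mrto4 was at 0.55 (SE 0.17) and the helicase Ddx31 at 0.53 (SE 0.22), and the ATPases Nvl and Mdn1 were lowest at −0.18 and −0.16.

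**Figure D4:**
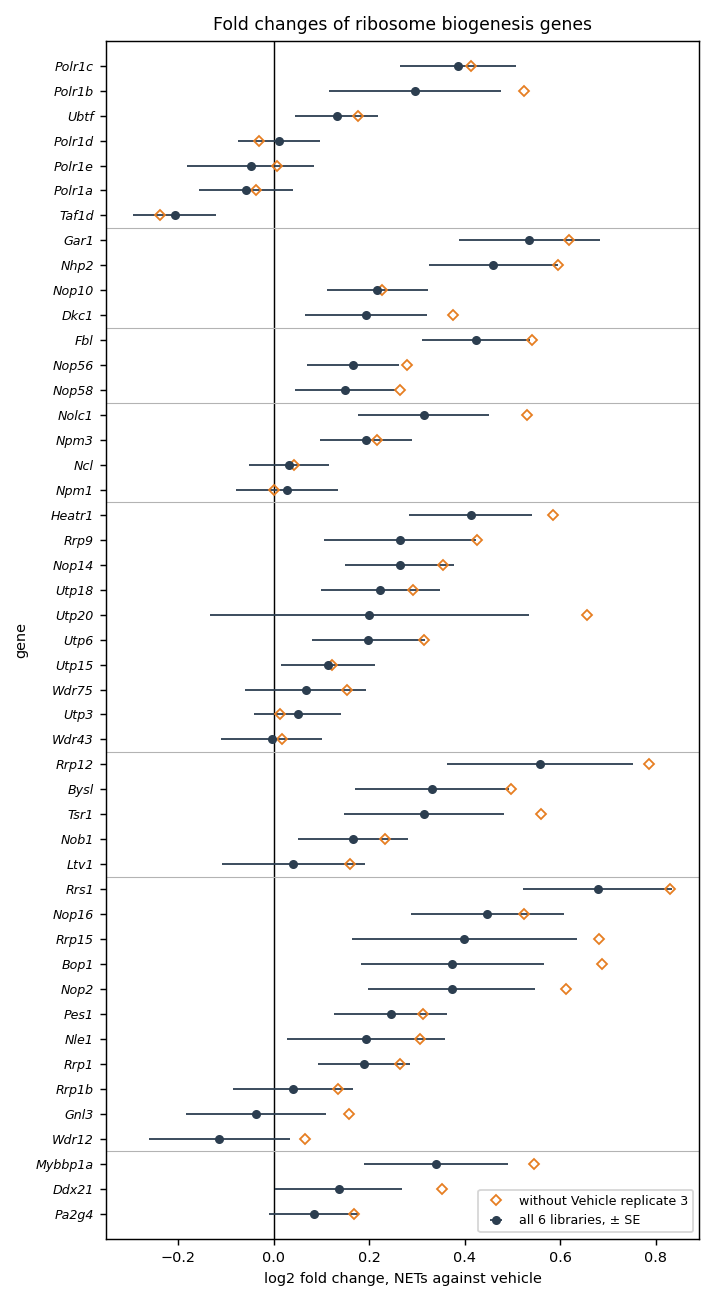
Log2 fold change of NETs against vehicle for the 47 tested genes, as filled circles with bars for ± SE from all 6 libraries and as open diamonds without vehicle replicate 3, in the role groups of the heat map. Rrs1 is highest at 0.68 and Taf1d lowest at −0.21, and most diamonds lie to the right of their circles.

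Of the remaining members, Mybbp1a, a nucleolar protein that binds the transcription factor Myb and takes part in precursor processing, had 104, 83.2 and 137 CPM with vehicle and 152, 138 and 117 CPM with NETs (0.34, SE 0.15; adjusted p = 0.374). Ddx21, a helicase of precursor transcription and processing, had 133, 134 and 199 CPM with vehicle and 178, 167 and 161 CPM with NETs, with vehicle replicate 3 the highest of all libraries (0.14, SE 0.13). Pa2g4, a growth-regulated protein that binds ribosomes, had 213, 187 and 236 CPM with vehicle and 228, 238 and 202 CPM with NETs, with full overlap (0.09, SE 0.09). Nuclear exosome genes, which trim the precursor's spacers, had a median of 0.15 over 13 tested genes, 9 above 0 and 0 past the adjusted threshold, from Exosc2 at 0.37 (SE 0.14) and Exosc7 at 0.31 (SE 0.11) to Exosc8 and Exosc1, both at −0.14.

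Myc was at a mean of 139 ± 7.96 CPM with vehicle and 127 ± 3.79 CPM with NETs, which gave −0.12 on the log2 scale (SE 0.08; adjusted p = 0.551). Its dimer partner Max was at 0.03, and the growth kinase Mtor and its partner Rptor at −0.02 and 0.04. Genes of DNA replication were also examined. For 9 proliferation genes, 7 of which encode Pcna and the Mcm proteins that license replication, the same score was −0.00035, −0.19 and 0.19 for vehicle replicates 1 to 3. For NETs replicates 1 to 3 it was 0.27, 0.27 and 0.11. Within that list Mcm2 stood at 0.40 (SE 0.12) and Pcna at 0.35 (SE 0.10), but the mitotic genes Top2a and Mki67 at −0.08 and −0.18. Its part in the members' values was not tested.

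**Figure D5:**
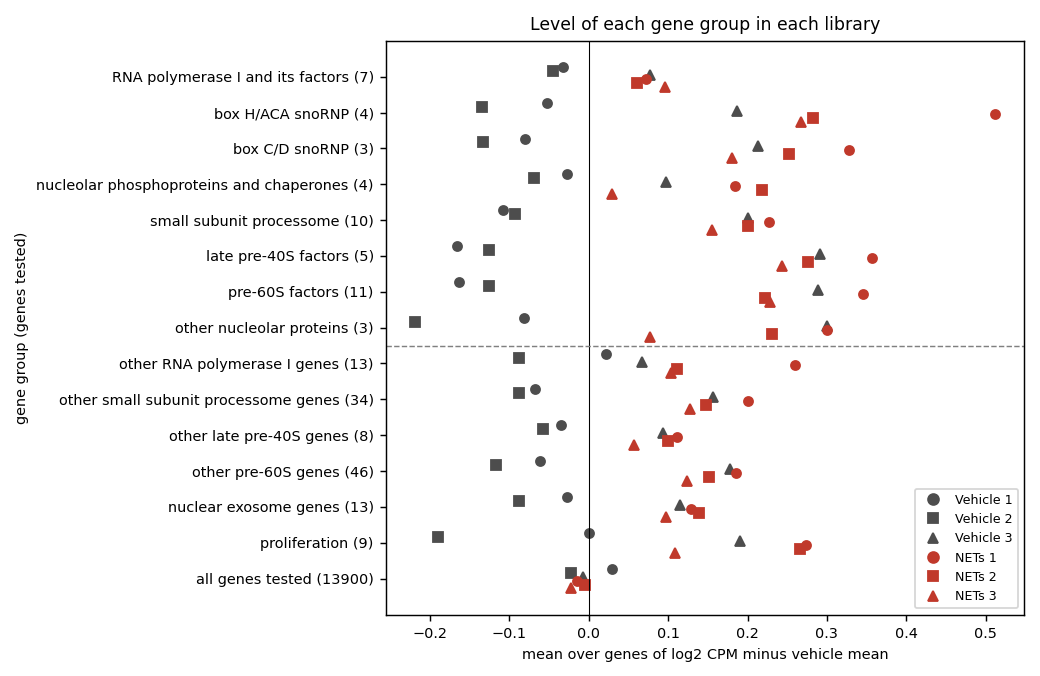
Score per library (mean over a group's tested genes of the log2 CPM distance from the vehicle average), with members' role groups above the dashed line and other groups below it; circles, squares and triangles are replicates 1 to 3, grey for vehicle and red for NETs. Vehicle replicate 3 lies among the NETs libraries in most groups, whereas box H/ACA values with NETs reach 0.51, and all genes tested stay near 0.

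Gene structure was described as another feature. Annotated snoRNA genes lay inside 8 of the 47 tested members on the same strand (17.02%), against 1.78% of 11845 tested protein-coding genes. The hosts were Taf1d with 8 snoRNA genes, Nop56 with 5, Nop58 with 4, Ncl, Wdr43 and Gnl3 with 3 each, Tsr1 with 2 and Dkc1 with 1. Their median log2 fold change was 0.09, with 5 above 0 and 0 higher at an unadjusted p under 0.05, while the members without a snoRNA gene had a median of 0.22. Over all tested protein-coding genes the order was the opposite, with medians of 0.030 for hosts and 0.013 for the others. This split was made after the values were seen and carries no test.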

How the data were processed

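Per the file headers, the authors deposited a table of raw counts and a table of FPKM values, with a gene length, for 3 NETs and 3 vehicle libraries. STAR, DESeq2 and build mm9 stand in the submitters' processing notes, with no role or version. The counting program, annotation and strand setting are not given here. Of 54409 genes found in the GENCODE M21 annotation, 98.3% had the same GRCm38 coordinates in the deposited table, and GRCm38 coordinates are printed. A second deposited count table held identical values.

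The filterByExpr function left 13900 genes (0.135% of reads lay outside them), which were scaled by TMM and tested two-sided for the group with the quasi-likelihood functions of edgeR 4.0.16 in R 4.3.3, with Benjamini-Hochberg adjustment over all genes tested and a threshold of 0.05. The standard error had a median of 0.126 over members and 0.146 over all genes tested. CPM values use library totals without the TMM factor; overlap between groups was judged on TMM-scaled CPM. Replicates within a group differed by more than sampling noise (chi-square per degree of freedom of at least 9.62). Alternatives used limma 3.58.1, DESeq2 1.42.0, other scalings and filters, FPKM with pseudocounts of 0.1 and 1, a replicate block, trends over length and GC content, and each library left out.

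The members, role groups and other lists were chosen with earlier results of these data known. Library values are given for the 2 highest and the lowest log2 fold change of each role group and for every member at an unadjusted p under 0.05, and the other members by fold change. Gm45736, library values of Bop1 and Utp20, the sequence motifs besides the E-box, and the snoRNA split were added after the values were seen. Of each other list, the 2 highest and the 2 lowest genes with a mean CPM of at least 5 are named, with Myc and Rrn3. Genes that share sequence with copies, or overlap other genes, are uncertain.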

Additional observations from a re-analysis of the deposited data

How the results depend on the processing

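Directions of the members' median (0.14 to 0.31 over all settings, 0.19 as reported) and of most single genes held. Over all genes, where 0 were called, DESeq2 called 145, limma-voom 1, no filter on low counts 322, and FPKM with a pseudocount of 0.1 or of 1 called 2 each; leaving out a library gave 0 to 405, the highest without vehicle replicate 3. Members called were 1 by DESeq2, 6 with no filter and 0 to 12 with a library left out. Members higher at an unadjusted p under 0.05 (11 as reported) were 18 with no filter (1311 of 24780 genes). Without vehicle replicate 1 they were 6 (581 of 14232 genes), the fewest with a library left out. They were 27 without vehicle replicate 3 (1578 of 14391), the most, and 7 without NETs replicate 1 (435 of 14367). Lower members at that p (1 as reported) were 0 with the length trend (641 of 13900 genes) or the GC trend (629) removed. With a library left out they were 0 to 1, against 434 (without NETs replicate 1) to 1364 genes (without vehicle replicate 3). Groups that did not overlap upward (12) numbered 11 to 34 with a library left out. The fewest were without vehicle replicate 1 (1676 of 14232 genes) and the most without vehicle replicate 3 (2754 of 14391). Downward (1) there were 0 with the GC trend removed (798 of 13900 genes) and 1 to 2 with a library left out. The 2 were without vehicle replicate 1 (1690 of 14232 genes) or without NETs replicate 1 (1533 of 14367). The GC trend and the counts above 0 and library scores under each setting were added after seeing the data. The cause of these differences was not tested, except that leaving out a library also leaves fewer samples.

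Signs reversed in 27 of 799 member values, in 11 members with small fold changes. With a library left out, the log2 fold change ranged from −0.0308 to 0.0551 for Polr1d, −0.14 to 0.0375 for Polr1e, −0.0288 to 0.0988 for Ncl, −0.11 to 0.11 for Npm1, −0.10 to 0.0693 for Wdr43, −0.0816 to 0.66 for Utp20, −0.0554 to 0.16 for Ltv1, −0.30 to 0.0652 for Wdr12, −0.0338 to 0.14 for Rrp1b and −0.14 to 0.16 for Gnl3. Polr1a was 0.00741 with the length trend removed. Polr1d was −0.00172 with upper-quartile factors, −0.00245 with a mean CPM of at least 5 and −0.000617 with the GC trend removed. Wdr43 was 0.00374 by limma-voom, 0.00376 with no filter and 0.0601 with the GC trend removed, where Gnl3 was 0.0149.

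The replicate block was fitted because the labels number the libraries alike in both groups. It called 0 genes and 0 members, and the members' median was 0.20. At an unadjusted p under 0.05, 11 members were higher and 0 lower, where 715 and 622 of 13900 genes were. Deviations of same-numbered libraries correlated at −0.08, −0.15 and −0.33 over 10081 genes, and no library correlated best with its own number. The highest values joined NETs replicate 1 with vehicle replicate 3 (0.37), 2 with 1 (0.21) and 3 with 2 (0.45). With 3 libraries a group, whose deviations from the group mean depend on each other, these values cannot decide whether libraries were paired.

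The median SE of the members was 0.126, against their median log2 fold change of 0.19, and the precision is limited by the spread among 3 libraries a group.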
